A study of Mus musculus with 2 samples.

Results

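The genes described here code for the proteins of the cytoplasmic ribosome. They were taken by name: each row whose symbol is Rps or Rpl followed by a digit, or is Rplp0, Rplp1, Rplp2 or Rpsa, without symbols that carry -ps (pseudogenes) or the letter k (S6 kinases). The rule gave 86 of the 31053 features, 34 named for the small subunit (Rps) and 52 named for the large subunit (Rpl). Of these, 77 are the standard subunit genes and 9 are paralogs or namesakes (Rps27l, Rps27rt, Rps19bp1, Rpl22l1, Rpl7l1, Rpl36al, Rpl3l, Rpl10l and Rpl39l). The data are 2 droplet libraries of lung dendritic cells from C57BL/6 mice of 8-10 weeks, with no treatment named. Lung was digested with dispase, and a flow sorter collected XCR1+ cells for the cDC1 library and CD172a+ cells for the cDC2 library. How many mice were used is not stated in the sources used here. With 1 library per sort, nothing could be tested, and every interval below is a 95% interval of counting error only.

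Ribosomal proteins fold with ribosomal RNA into the small subunit, which decodes the messenger RNA, and the large subunit, which joins amino acids. Their messenger RNAs are among the most abundant in any cell, and cells adjust them largely as a block, because subunits are built from equal numbers of most of the proteins. The messenger RNAs typically start with a C followed by a run of C and T (the terminal oligopyrimidine, or TOP, motif), through which growth signals control their translation. Dendritic cells that mature switch from taking up antigen to presenting it.

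Start-site sequences are shown for 6 genes on which the results below turn: Rps27l, which departed most from the rest, its paralog Rps27, Rpl13a and Rpl5, which were among the most lowered in 1 state, and Rpsa and Rps19, which were among the least lowered in mature cells. Each line gives 40 bases before and 20 bases after the annotated start, 5′ to 3′ on the strand of the gene, from the RefSeq table on GRCm38.p6. Capitals mark the longest run of C and T that lies wholly within 25 bases on either side of the start, and the first of them where runs tie, as in Rps27l and Rps19.
Rps27 (chr3:90213629-90213688, minus strand): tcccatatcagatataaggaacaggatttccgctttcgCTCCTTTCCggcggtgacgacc
Rps27l (chr9:66946046-66946105, plus strand): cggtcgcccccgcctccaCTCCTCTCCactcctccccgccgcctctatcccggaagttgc
Rpl13a (chr7:45128726-45128785, minus strand): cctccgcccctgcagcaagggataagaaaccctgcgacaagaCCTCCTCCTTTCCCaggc
Rpl5 (chr5:107900488-107900547, plus strand): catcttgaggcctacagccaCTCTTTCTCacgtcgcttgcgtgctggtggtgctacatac
Rpsa (chr9:120127726-120127785, plus strand): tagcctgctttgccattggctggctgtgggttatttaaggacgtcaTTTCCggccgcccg
Rps19 (chr7:24884552-24884611, plus strand): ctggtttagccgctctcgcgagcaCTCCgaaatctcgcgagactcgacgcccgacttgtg
The marked run is 14 bases in Rpl13a, 9 in Rps27, Rps27l and Rpl5, 5 in Rpsa and 4 in Rps19. By the same rule it is 4 bases in Rpl22 and 7 in Rpl12, among the most lowered in mature cells of the cDC2 library. In Rpl22l1, at the high end in cycling cells, it is 10 bases. These lengths depend on the window, as a longer run of C and T in Rpl22 ends just outside it. In Rps27l, Rpl5, Rps19 and Rpl22 the marked run lies before the annotated start, outside the annotated messenger RNA. Whether run length goes with the response was not tested. The table matched 66 of the 86 genes by symbol. Within 25 bases on either side of the start, a run of C and T of at least 8 bases on the strand of the gene stood in 30 of the 66 (45.5%), against 19.4% of all 27025 genes in the table. On the opposite strand the shares were 7.58% and 21.2%. The letters CTTTCC stood on the strand of the gene in 36.4% of the 66 windows of 300 bases and in 14.1% of all windows. A match describes these letters only.

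The sort labels were checked against marker genes before the ribosomal protein genes were read. Levels are in CPM, the unique molecular identifiers (UMIs) of a gene per 1000000 UMIs of the group. Xcr1 had 248 CPM in the XCR1+ sort and 4.85 CPM in the CD172a+ sort, and Sirpa, which codes for CD172a, had 5.61 and 122 CPM. After filtering, the libraries held 2570 and 2834 cells with 34967686 and 38574084 UMIs. Cell states came from clusters built without the ribosomal protein genes, so their shares played no part in the states. Cycling cells numbered 239 (cDC1 library) and 291 (cDC2 library), and mature cells 112 and 87. A cluster led by Cd7 and Plac8, which received no cell type name, held 421 cells of the cDC2 library and 5 of the cDC1 library, too few to describe. The remaining 2214 and 2035 cells are called other cells. Most are cDC1-like or cDC2-like. In the cDC2 library they also hold 161 cells of an unnamed cluster, 37 B cell-like, 37 nonclassical monocyte-like, 33 neutrophil-like and 5 NK cell-like cells. In the cDC1 library the same classes hold 14, 5, 0, 3 and 10 cells. Without these classes, the ribosomal protein share of other cells in the cDC2 library was 24.0%, against 23.2% with them. Fscn1, which codes for the actin bundler of mature dendritic cells, stood at 1627 and 1464 CPM in mature cells against 3.098 and 2.947 CPM in other cells. Top2a, a topoisomerase of dividing cells, stood at 533 and 608 CPM in cycling cells against 13.1 and 17.2 CPM. Fscn1 and Top2a are among the markers that named these clusters, so their values describe the states and do not check them.

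Ribosomal protein genes gave 24.8% of all UMIs of the XCR1+ sort (cDC1 library) and 23.2% of those of the CD172a+ sort (cDC2 library). The top of the expression range was largely theirs, with 29 (cDC1 library) and 28 (cDC2 library) of the 50 highest genes. Counts come from 3′ ends, so levels of different genes can be set side by side with little part for gene length. Rps29, a small-subunit protein, was the highest, at 8975 CPM (cDC1 library) and 8121 CPM (cDC2 library). Rplp1, an acidic protein of the stalk that recruits translation factors, had the next highest mean over the libraries, at 7065 and 5224 CPM, although Rpl41 lay above it in the cDC2 library (5249 CPM). Rps24, Rpl39 and Rpl41 came next, with means over the libraries of 5188, 5041 and 4945 CPM. These 5 genes held 12.5% and 12.4% of the ribosomal protein UMIs. The distribution was flat below them, as 74 genes lay above 1000 CPM in both libraries. At the low end, 83 genes reached 10 CPM in the libraries and were compared, while Rpl3l, Rpl39l and Rpl10l stayed under 10 CPM in both. Rpl13a, at 505 and 396 CPM, was the lowest of the standard subunit genes. The sources used here do not say how reads that match a gene and its processed copies were counted, so genes with near-identical copies are uncertain. The -ps rows left out held little, the highest being Rpl10-ps3 at 132 and 114 CPM.

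By state, the share was highest in other cells of the cDC1 library and in Cd7 Plac8 cells, lower in cycling cells and lowest in mature cells. In the cDC1 library it was 26.0% in other cells, 20.9% in cycling cells and 16.3% in mature cells. In the cDC2 library it was 26.6% in Cd7 Plac8 cells, 23.2% in other cells, 20.6% in cycling cells and 19.6% in mature cells. Single cells overlapped between states. The middle 50% of cells of the cDC1 library ran from 23.2% to 28.9% in other cells, from 18.5% to 23.4% in cycling cells and from 12.7% to 18.2% in mature cells. The same ranges of the cDC2 library were 20.7% to 26.2%, 18.5% to 23.1% and 16.1% to 23.7%, and 24.5% to 29.7% in Cd7 Plac8 cells.

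**Figure D1:**
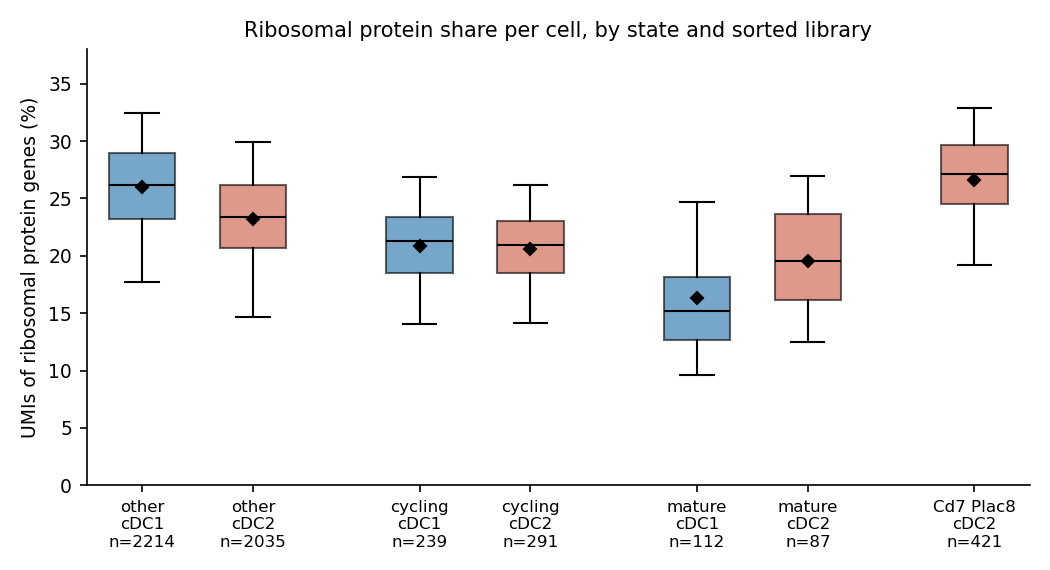
Percent of UMIs from ribosomal protein genes (vertical axis) in single cells of each state, cDC1 library in blue and cDC2 library in red. Boxes span the quartiles with the median as a line, whiskers run from the 5th to the 95th percentile, and diamonds are the summed share. The boxes of mature cells of the cDC1 library lie lowest (median 15.2%) and those of Cd7 Plac8 cells highest (median 27.1%).

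A lower share went with different absolute counts in the 2 states. The median mature cell of the cDC1 library carried 1909.5 ribosomal protein UMIs and 10793 other UMIs, against 3285.5 and 9194 in other cells. The median cycling cell of that library carried 4293 ribosomal protein UMIs and 16317 other UMIs. Mature cells therefore had fewer ribosomal protein UMIs and more of the rest than other cells, while cycling cells had more of both. For the cDC2 library, the median mature cell held 2171 ribosomal protein UMIs and 8471 others, below the 2979 and 9563 of other cells on both. The median cycling cell there held 4058 and 15760. The mitochondrial share, a sign of cell damage, was highest in the mature cells, with medians of 4.22% against 3.93% in other cells (cDC1 library) and 4.33% against 3.78% (cDC2 library). It was 3.65% and 3.69% in cycling cells and 3.63% in Cd7 Plac8 cells. Among cells of at most 5% mitochondrial UMIs, the mature over other ratio of the ribosomal protein share was 0.642 and 0.856, beside 0.627 and 0.844 in all cells. Among cells of 10000 to 20000 UMIs, a choice made after the data were seen, the shares were 26.3%, 21.7% and 15.5% (other, cycling and mature, cDC1 library) and 23.6%, 21.1%, 18.8% and 26.7% (the same states and Cd7 Plac8, cDC2 library).

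Maturation was set against other cells within each library. Ribosomal protein genes were lower in mature cells of the cDC1 library, with a ratio of shares of 0.627 (0.625 to 0.630), and less so in the cDC2 library, at 0.844 (0.840 to 0.847). A difference of 1.5-fold in CPM is the size used for a call, and it replaces a test here. By it, 65 of the 83 genes were lower and 1 was higher in mature cells of the cDC1 library, where 23.9% of all 6549 genes measured were lower and 24.2% were higher. None of the 83 passed 1.5-fold in the cDC2 library, where 16.7% of all genes were lower and 24.3% higher. The cDC2 value depends on where the mature class ends: with finer clusters, at a resolution of 2, that class held 433 cells and the ratio was 1.01. Of the 433, 365 were a cluster led by Arap2, Srxn1 and Ccr7, with 4 mature and 4 cDC2 markers. The other 68 were a cluster led by Apol7c and Fscn1, with 12 mature markers. With coarser clusters, at a resolution of 0.5, the mature class held 68 cells, with a share of 19.1% against 23.4% in other cells. Among cells of 10000 to 20000 UMIs 8 of the 83 passed 1.5-fold lower in that library, where 21.8% of all genes did. The median log2 ratio of the 83 was -0.71 (cDC1 library) and -0.26 (cDC2 library). Across all genes measured the medians were 0.02 and 0.13. Small-subunit and large-subunit genes, grouped by name, had near-equal medians, -0.72 and -0.70 (cDC1 library) and -0.25 and -0.26 (cDC2 library). All 77 standard genes lay below 0 in the cDC1 library, and 74 of them did so in the cDC2 library.

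The lowest mature levels of the cDC1 library were those of core large-subunit genes. Rpl32 stood at 1827 CPM in mature cells against 4057 CPM in other cells, a ratio of 0.450 (0.434 to 0.468). Rpl13a, whose protein also has a part outside the ribosome in interferon-gamma-driven translational silencing, stood at 249 against 542 CPM (0.460, 0.414 to 0.509). Rpl4 had a ratio of 0.482. Past 2-fold lower there were 8 of the 83 genes, where 13.1% of all genes measured passed. The smallest ratio belonged to Rps19bp1, a binding partner of the Rps19 protein and no ribosome subunit, at 0.406, but it rests on 17 UMIs in mature cells (0.235 to 0.655). In the cDC2 library the most lowered were Rpl12 (1504 against 2153 CPM, ratio 0.698), a protein at the base of the stalk, Rpl32 (0.708) and Rpl22 (0.708). Their place at the low end there depends on where the mature class ends. With clusters at a resolution of 2, the log2 departure from the median of the 83 genes went from -0.26 to 0.015 for Rpl12, from -0.24 to -0.081 for Rpl32 and from -0.24 to 0 for Rpl22. The stalk genes were lowered to different degrees in the cDC1 library, with ratios of 0.740 for Rplp0, 0.742 for Rplp2 and 0.665 for Rplp1.

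**Figure D2:**
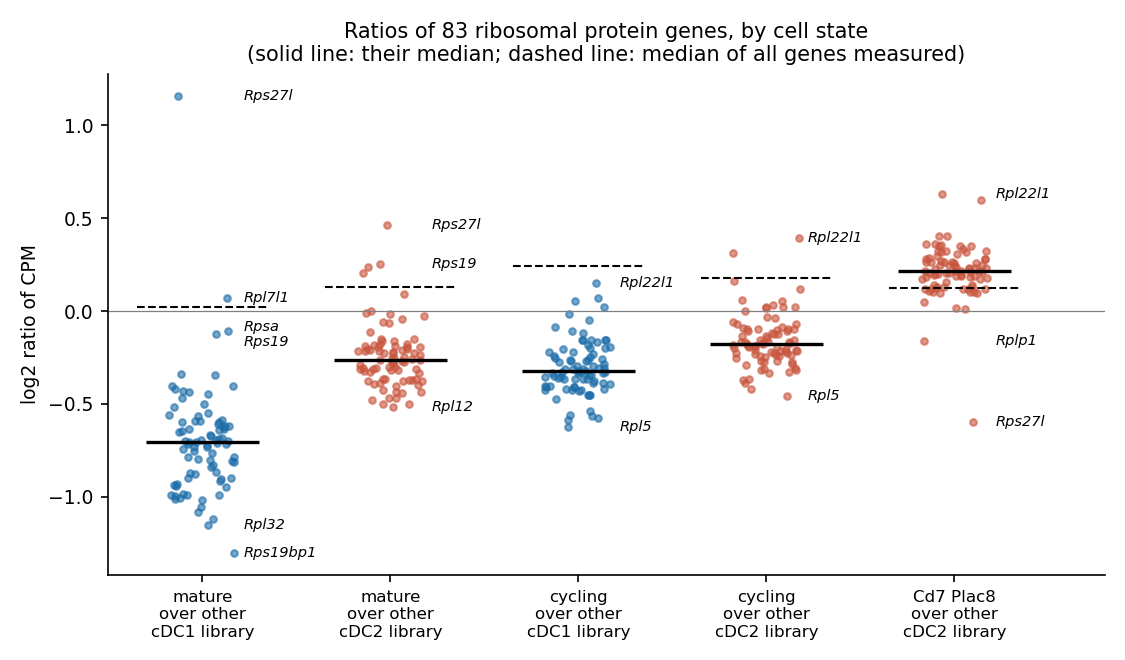
Log2 ratio of CPM, state over other cells of the same library (vertical axis), for the 83 genes in 5 comparisons, 1 point per gene. Solid lines are the medians of the 83 and dashed lines the medians of all genes measured. The points of mature cells of the cDC1 library sit around -0.71 with Rps27l alone far above, and those of Cd7 Plac8 cells sit around 0.22.

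Rps27l stood apart from the rest in mature cells. Its protein is a close paralog of Rps27, and the gene is a known target of the tumour suppressor p53. In the cDC1 library it held 549 CPM in other cells, 510 CPM in cycling cells and 1223 CPM in mature cells. The cDC2 library had 783, 622 and 1081 CPM, and 517 CPM in Cd7 Plac8 cells. Mature cells were thus the highest of these states in both libraries, and cycling and Cd7 Plac8 cells lay below other cells. However, 1 cluster within other cells lay above mature cells. This was cluster 5, led by Arap2, Srxn1 and Ccr7, at 1141 CPM (cDC2 library) and 1450 CPM (21 cells of the cDC1 library). The mature ratio was 2.23 (2.12 to 2.34) for cDC1 and 1.38 (1.30 to 1.46) for cDC2. Measured from the median of the 83 genes, the log2 departure was 1.86 and 0.73. Its paralog Rps27 followed the block, at 5205 CPM in other cells and 3561 CPM in mature cells of the cDC1 library, and at 5106 and 4573 CPM in the cDC2 library. Among mature cells themselves Rps27l differed little between libraries, with a cDC2 over cDC1 ratio of 0.885 (0.821 to 0.952), while among other cells that ratio was 1.43 (1.40 to 1.46). Cluster 5 gave 8279 of the 20988 Rps27l UMIs of other cells in the cDC2 library.

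Rpsa and Rps19 had the highest mature ratios of the standard genes in both libraries. Rpsa codes for a small-subunit protein also known as a laminin receptor precursor, and Rps19 for a small-subunit protein mutated in Diamond-Blackfan anaemia. Rpsa held 5241 CPM in other cells and 4871 CPM in mature cells of the cDC1 library (0.929, 0.908 to 0.951), and 4343 and 5010 CPM in the cDC2 library (1.15, 1.12 to 1.19). Rps19 held 3575 and 3279 CPM in the cDC1 library (0.917, 0.892 to 0.944), and 3270 and 3901 CPM in the cDC2 library (1.19, 1.16 to 1.23). Both genes were thus slightly lower in 1 library and slightly higher in the other, and their ratios stood above those of the other 75 standard genes in each. None of these 4 ratios reached 1.5-fold. With clusters at a resolution of 2, the departure of Rps19 from the 83 genes in the cDC2 library was 0.16 in place of 0.52 on the log2 scale. Relative to the median of all genes, their log2 ratios in the cDC2 library were 0.08 for Rpsa and 0.12 for Rps19. Rpl7l1, a low-level paralog of Rpl7 found in the nucleolus, had ratios of 1.05 (0.810 to 1.34) and 1.18 (0.869 to 1.56), whose intervals include 1.

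**Figure D3:**
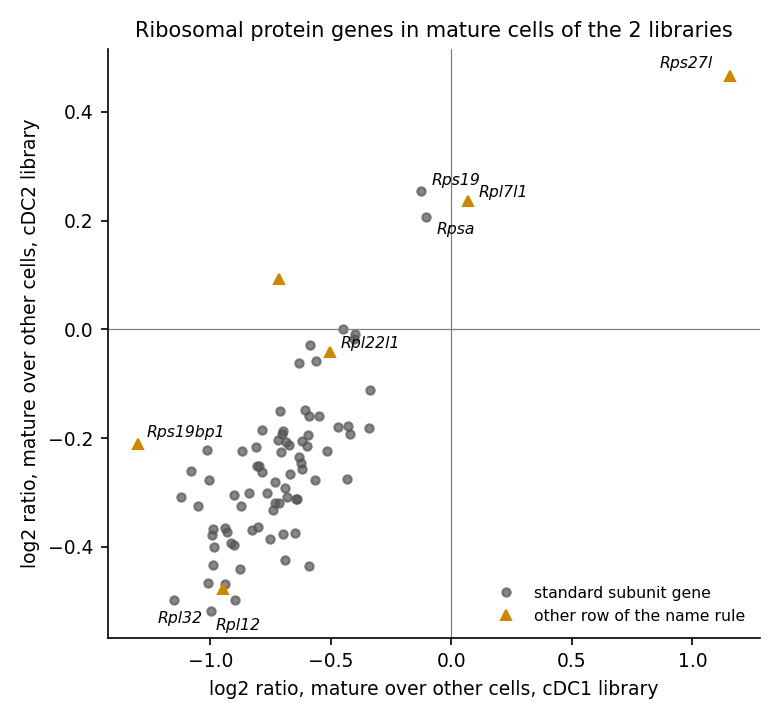
Log2 ratio of CPM, mature over other cells, in the cDC1 library (horizontal axis) and the cDC2 library (vertical axis), 1 point per gene for the 83 genes. Circles are standard subunit genes and triangles the paralogs and namesakes. Most points lie at lower left, Rps27l at upper right (1.16 and 0.47), and Rps19 and Rpsa near 0 on the horizontal axis and above 0 on the vertical axis.

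The order of the 83 genes in mature cells was alike between the libraries. Across the 83, Pearson's r of the 2 sets of log2 ratios was 0.79 and Spearman's rho 0.69, and over the 77 standard genes they were 0.75 and 0.70. For cycling cells, r was 0.88 and rho 0.84 over the 83. These describe genes, which are not independent replicates, and the libraries share kit and sequencing lane.

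Cycling cells were set against other cells in the same way. The ribosomal protein share was lower, with ratios of 0.803 (0.801 to 0.804) for cDC1 and 0.888 (0.886 to 0.890) for cDC2. The median log2 ratio of the 83 genes was -0.32 and -0.18, where the medians of all genes lay at 0.24 and 0.18. Relative to those medians, none of the 83 was higher for cDC1 and 2 were for cDC2. By the 1.5-fold rule 1 gene was lower and none higher in the cDC1 library (1.97% and 21.6% of all genes). None passed either way in the cDC2 library (4.41% lower and 18.1% higher). The gene called was Rpl5, which with Rpl11 carries 5S ribosomal RNA and can bind the p53 regulator Mdm2. Rpl5 held 2152 CPM in other cells and 1398 CPM in cycling cells of the cDC1 library (0.650, 0.634 to 0.666), and 1758 and 1282 CPM in the cDC2 library (0.729, 0.711 to 0.747). Its partner Rpl11 held 2611 and 2104 CPM, and 2364 and 2095 CPM. Rpl5 was thus the most lowered gene of the 83 in both libraries. Scaled by the median ratio of all genes, 35 and 2 of the 83 passed 1.5-fold lower, where 5.9% and 7.54% of all genes did.

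Other genes at the low end of cycling cells were Rpl17, at 0.667 and 0.777, Rps27, at 0.672 and 0.747, and Rpl10, a late-joining large-subunit protein, at 0.675 and 0.774. Rps27rt, a retrocopy of Rps27 whose reads may be shared with it, followed Rps27 at 0.680 and 0.764. At the high end stood Rpl22l1, a paralog of Rpl22. It held 308 CPM in other cells and 342 CPM in cycling cells of the cDC1 library (1.11, 1.05 to 1.17), and 315 and 415 CPM in the cDC2 library (1.32, 1.26 to 1.38). Rpl22 went the other way, from 2039 to 1551 CPM and from 1698 to 1405 CPM. The direction of Rpl22l1 depends on the scaling in the cDC1 library, where it lay 0.09 log2 units below the median of all genes. In the cDC2 library it lay 0.22 above. Rps19bp1 had ratios of 1.01 and 1.24.

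Cd7 Plac8 cells of the cDC2 library had more ribosomal protein UMIs as a share than other cells, with a ratio of 1.15 (1.146 to 1.150). Genes at large moved the same way, by less. The median log2 ratio of the 83 genes was 0.22, that of all genes 0.13, and 60.5% of all genes measured lay below the former. With scaling by the median ratio of all genes, the ratio of shares was 1.05. Of the 83 genes 2 passed 1.5-fold higher (10.1% of all genes) and 1 passed 1.5-fold lower (9.4% of all genes). The higher ones were both paralogs, Rpl22l1, at 489 against 315 CPM (1.55, 1.48 to 1.62), and Rpl7l1, at 59.6 against 39.4 CPM (1.51, 1.33 to 1.72). The lower one was Rps27l, at 517 against 783 CPM (0.660, 0.633 to 0.688). Of the 20988 Rps27l UMIs of those other cells, 8279 came from the Ccr7-led cluster 5, at 1141 CPM. Among the other cDC2-like clusters, cluster 1 held 740 CPM and cluster 7 held 491 CPM, below Cd7 Plac8 cells. Cluster 5 held 7254311 of the 26802702 UMIs of those other cells, so it raised their Rps27l level. The call without cluster 5 was not tested. Neither paralog passed 1.5-fold when scaled by the median ratio of all genes (6.17% of all genes higher), and none of the 83 was 1.5-fold lower among cells of 10000 to 20000 UMIs (9.93% of all genes). The departure of Rps27l from the 83 was -0.82 on the log2 scale and reached -1.51 with coarser clusters, at a resolution of 0.5. Rplp1 was the lowest standard gene, at 4889 against 5458 CPM (0.896, 0.884 to 0.908), and the only other gene of the 83 below other cells. Its stalk partners Rplp0 and Rplp2 held 4204 against 3815 CPM and 3351 against 3122 CPM.

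Between whole libraries, the cDC2 over cDC1 ratio of shares was 0.933 (0.932 to 0.934). None of the 83 genes passed 1.5-fold in either direction, where 14.4% of all genes were higher and 11.1% lower in the cDC2 library. The lowest ratios were those of Rpl17 (3129 against 4276 CPM, 0.732), Rplp1 (5224 against 7065 CPM, 0.739) and Rpl13a (0.786). The highest were those of Rps27l (733 against 573 CPM, 1.28), Rpl22l1 (1.14) and Rpl41 (5249 against 4641 CPM, 1.13), which codes for a very short peptide of the large subunit. Split by state, the library ratio of shares was 0.892 in other cells, 0.987 in cycling cells and 1.20 in mature cells. Mature cells thus showed the opposite order to other cells, with the higher share in the cDC2 library. Rplp1 kept its lower level in the cDC2 library in each of these states, with ratios of 0.738, 0.791 and 0.821. Among mature cells it lay 0.61 log2 units below the median of the 83 genes.

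Finer clusters showed how far the share ranged. In the XCR1+ sort, the 3 largest cDC1-like clusters had shares of 27.4%, 24.6% and 25.8%. A further cDC1-like cluster, led by the heat shock genes Hspa1a and Hspa1b, had 27.4%. In the cDC2 library, cDC2-like clusters 1, 5 and 7 had 24.3%, 24.0% and 22.9%. The unnamed cluster 12, led by Retnla and Fn1, had 17.5%. The neutrophil-like cluster of 33 cells had the lowest share, 11.1%, with a median over cells of 5.55%. Its median depth was 2835 UMIs per cell, below the 12653.5 of the library, and the part of free RNA in its counts was not tested. Rps27l did not follow the order of the shares. It was lowest among cDC1-like clusters in the heat shock cluster, at 296 CPM (278 to 314). It was high in cluster 5, led by Arap2, Srxn1 and Ccr7, at 1141 CPM (1117 to 1166) in the cDC2 library and at 1450 CPM (1318 to 1592) in the 21 cells of it in the cDC1 library. Mature cells of the same libraries held less, 1081 CPM (1020 to 1145) and 1223 CPM (1168 to 1279). Cluster 5 carried 4 mature markers beside 6 cDC2 markers and was counted with other cells. Its own share of 24.0% in the cDC2 library was above that of mature cells.

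**Figure D4:**
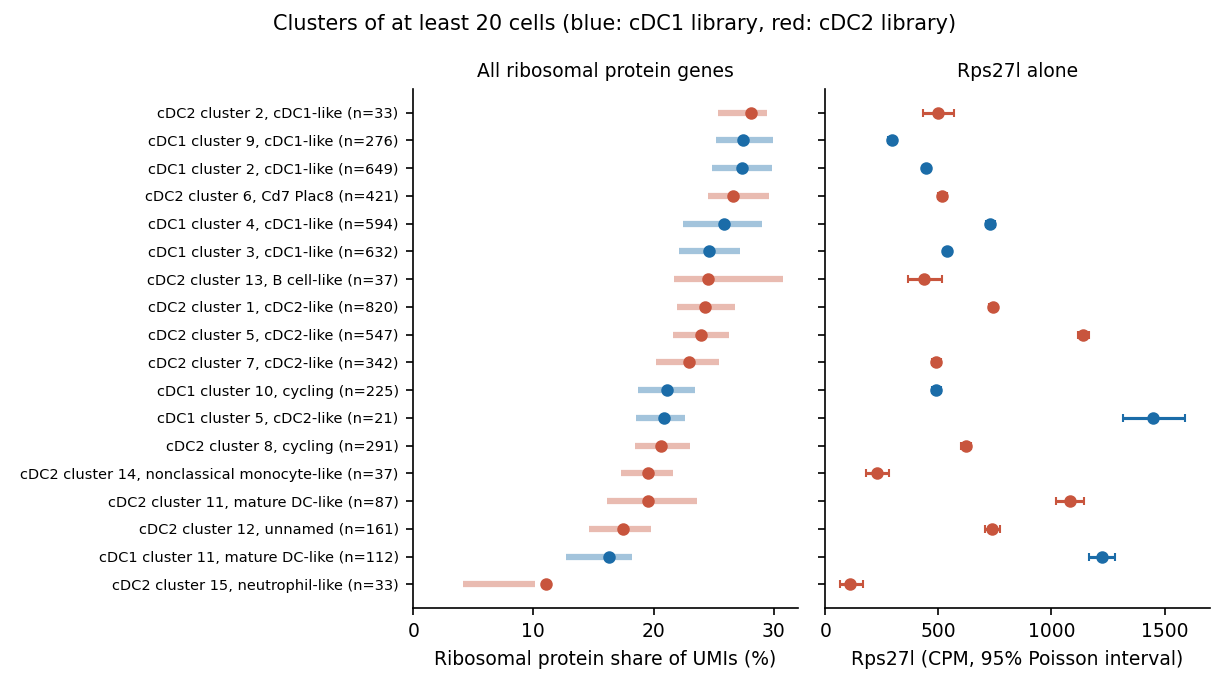
Clusters of at least 20 cells, by library (blue cDC1, red cDC2), in order of their ribosomal protein share. The left panel gives the summed share in percent with the quartiles of single cells as a bar, and the right panel gives Rps27l in CPM with 95% Poisson intervals. Mature and Ccr7-led clusters lie above 1000 CPM of Rps27l at shares from 16.3% to 24.0%.

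The other paralogs of the name rule lay below their standard genes. Rpl36al held 573 and 526 CPM in the libraries, against 1373 and 1399 CPM of Rpl36a, and so lay above the standard gene Rpl13a (505 and 396 CPM). Both were lowered in mature cells of the cDC1 library, from 600 to 311 CPM and from 1436 to 781 CPM. Rpl7 held 1952 and 1980 CPM and Rpl7l1 42.9 CPM in each library. Rpl39l, a testis paralog of Rpl39, gave 23 UMIs (cDC1 library) and 4 (cDC2 library). Rpl10l, a testis paralog of Rpl10, gave 0 UMIs in both, which allows up to 0.105 and 0.0956 CPM. Rps4x, the X-linked small-subunit gene, held 3791 and 3443 CPM. Rpl3l, a paralog of Rpl3 known from muscle, gave 5 UMIs (cDC1 library) and 54 (cDC2 library). Of the latter, 28 came from 70 nonclassical monocyte-like and neutrophil-like cells, at 53.5 CPM (32.2 to 83.6) and 50.8 CPM (23.2 to 96.5). Cells with a UMI of Rpl3l made up 27.0% of the monocyte-like cells, at a median of 8561 UMIs per cell. They made up 0.854% of cDC2-like cluster 1, at 12408.5 UMIs.

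**Figure D5:**
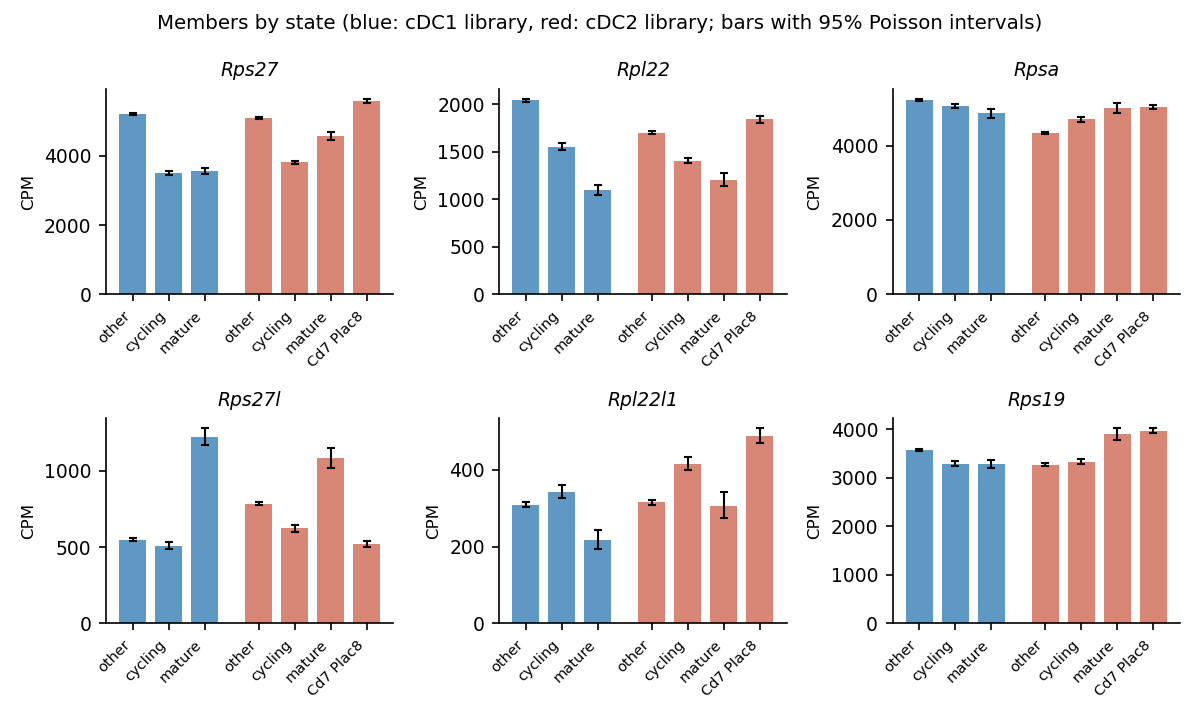
Level in CPM (vertical axes, starting at 0) of 6 genes in each state, cDC1 library in blue and cDC2 library in red, with 95% Poisson intervals. Rps27l is highest in mature cells (1223 and 1081 CPM) while Rps27 is not, Rpl22l1 is highest in Cd7 Plac8 cells (489 CPM), and Rpsa and Rps19 vary least of the 6.

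Genes that work with the ribosome were described from lists. Rack1, a signalling scaffold on the small subunit whose name falls outside the rule, passed 1.5-fold lower in mature cells of the cDC1 library, at 1261 against 2263 CPM. Fau, another ribosomal protein outside the rule, held 4068 against 5764 CPM and did not pass. Of all genes, 23.9% were lower and 24.2% higher in that comparison, and the lists are read against those shares. Of the list of elongation factors, which also holds Tpt1 and Eef1e1, 5 of 8 genes (62.5%) passed 1.5-fold lower there and none higher. Eef1b2 held 868 against 1874 CPM. Of the ribosome biogenesis genes, 26 of 37 measured (70.3%) were lower and none higher, with a median log2 ratio of -0.88. Fbl, the methyltransferase fibrillarin, held 71.6 against 185.7 CPM, and Nop58, its partner in the nucleolus, 23.6 against 62.7 CPM. Against the list, Eif6, which keeps the subunits apart, held 125 against 89.1 CPM. Of 30 initiation factors and poly(A)-binding genes, 7 were lower (23.3%, near the share of all genes) and 1 higher. Eif4e, which binds the cap of the messenger RNA, held 49.9 against 138 CPM, and Eif1ax held 123 against 64.8 CPM. Of 62 mitochondrial ribosomal protein genes, 19 were lower (30.6%) and 4 higher (6.45%), and Mrpl14 held 115 against 35.4 CPM. In mature cells of the cDC2 library, 16.7% of all genes were lower and 24.3% higher. There, 11 of 35 biogenesis genes (31.4%) were lower and 2 higher. Of the elongation list 1 of 8 genes was lower, and 2 of 30 initiation genes were higher and none lower. Of the mitochondrial list there, 10 of 59 were higher (16.9%) and 9 lower (15.3%), both below the shares of all genes.

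In cycling cells the medians of biogenesis and mitochondrial ribosome genes lay above that of all genes, while that of the cytoplasmic ribosomal protein genes lay below it. Of 40 biogenesis genes measured, 5 passed 1.5-fold higher and none lower in the cDC1 library, and 9 passed higher and 1 lower in the cDC2 library. The shares higher, 12.5% and 22.5%, compare with 21.6% and 18.1% of all genes. Their median log2 ratios of 0.26 and 0.33 stood beside 0.24 and 0.18 for all genes. Of the mitochondrial ribosomal protein genes, whose products make the proteins coded by mitochondrial DNA, 19 of 68 (27.9%) and 20 of 67 (29.9%) were higher, and 1 was lower in the cDC2 library. Their median log2 ratios were 0.40 and 0.45. Mrpl18 held 75.8 against 30.9 CPM and 55.5 against 22.8 CPM. In Cd7 Plac8 cells, 11 of 41 biogenesis genes (26.8%) and 17 of 64 mitochondrial ribosomal protein genes (26.6%) were higher and none lower, where 10.1% of all genes were higher and 9.4% lower. Nop10 held 177 against 110.3 CPM, and Mrpl30 held 117 against 70.2 CPM. Of 6 translation repressors and TOP-binding genes measured, 1 was higher and 1 lower in mature cells of the cDC1 library, and 1 was higher in those of the cDC2 library, too few genes to set against a share. Pdcd4, a repressor of translation initiation, was the higher one, at 118 against 58.0 CPM for cDC1 (2.04-fold) and at 134 against 80.6 CPM for cDC2 (1.66-fold).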

How the data were processed

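Each library came as 1 matrix of UMI counts, gene by barcode, as the authors deposited it. The submitters' processing notes name Cell Ranger 3.2, Seurat and mm10, but the software version is 3.0.2 per the file headers. Libraries used the 10x Chromium v3.1 kit, per the labels' protocols. Barcodes (2939 and 3045, 6 shared by both libraries) stayed in with no more than 10% mitochondrial UMIs, 500 or more genes and 1000 or more UMIs. Scrublet marked 5 of 5409 cells (0.0924%) as doublets, too few to rely on. Those were removed, and doublets otherwise stayed in. Cells were clustered with scanpy 1.11.5 on 2000 variable genes other than the 86, with 30 components, 20 neighbours and Leiden resolution 1. A cluster was cycling with at least 5 cycling markers, mature where mature markers led (at least 3), and Cd7 Plac8 where both genes were among its 10 leading genes.

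UMIs were summed per state and library. Shares have exact Clopper-Pearson intervals, levels exact Poisson intervals and ratios exact conditional binomial intervals. Genes were compared at 10 CPM or more in 1 of the 2 groups. The ratio code was tested on simulated data. A departure is a log2 ratio minus the median of the 83 genes. Genes named are the 5 highest, the 3 largest and 3 smallest departures per comparison, departures past 1.5-fold at 50 CPM or more, fixed paralog pairs and up to 2 genes at each end of each list. Rpl4, Rpl10, Rpl11, Rplp0, Rplp2 and Rps20 were added after their values were seen. Some genes that the rule names are not reported here. The genes and lists were chosen with earlier results of these data known. For genes with several starts in the promoter table, the start nearest the gene's 5′ end in GENCODE vM21 was used.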

Additional observations from a re-analysis of the deposited data

Results flagged for a closer look

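Some genes lay on opposite sides of other cells in the 2 libraries, with counting intervals that leave out 1, although the difference between the libraries was not tested. In mature cells, Rps19 had a ratio of 0.917 (cDC1 library) and 1.19 (cDC2 library), and Rpsa had 0.929 and 1.15. In cycling cells, Rps20 had 0.941 and 1.02, Rps19 had 0.920 and 1.02, Rpsa had 0.968 and 1.08, and Rpl3 had 0.899 and 1.04. Relative to the median of all genes, the 4 cycling ratios of the cDC2 library lay below 0 on the log2 scale, and its 2 mature ratios above it.

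Barcodes left out of the states also held ribosomal protein UMIs. Their share was 8.27% in the 369 barcodes removed from the cDC1 library (365 by the filter and 4 as doublets), and 7.13% in the 211 removed from the cDC2 library (210 and 1), below every state described. Their median mitochondrial share was 18.9% and 18.3%.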

How the results depend on the processing

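No paired analysis was possible because each sort has 1 library, and no replicate could be left out. Of 602 alternative values, 2 changed direction. With finer clusters (resolution 2), the mature over other ratio of the cDC2 library was 1.01 and the departure of Rpl12 was 0.015. The mature class there held 433 cells, 69 of them shared with the 87. It took in 365 cells of a cluster with 4 mature and 4 cDC2 markers. Under that setting the departure of Rpl22 in the same cells was 0. All departures from the summed genes equal those with a denominator of ribosomal protein UMIs only, so these were run once. Counting intervals are narrow at this depth, so most ratios left them. In this order (cDC2 over cDC1 library, mature cDC1, mature cDC2, cycling cDC1, cycling cDC2, Cd7 Plac8), scaling by the median ratio gave 0.901, 0.619, 0.771, 0.679, 0.786 and 1.05. Cells of 10000 to 20000 UMIs gave 0.925, 0.588, 0.799, 0.825, 0.897 and 1.13. Without a cell filter the first 5 were 0.941, 0.640, 0.854, 0.828 and 0.896. At most 5% mitochondrial UMIs gave 0.928, 0.642, 0.856 and 0.795 for the first 4 and 1.15 for Cd7 Plac8. A mean over cells gave 0.619, 0.855, 0.812, 0.900 and 1.16 for the 5 state ratios. Other cells from cDC1-like and cDC2-like clusters only gave 0.817, 0.800, 0.860 and 1.11 for the last 4. Clusters at resolution 2 gave 0.652 (mature cDC1), 0.810 and 0.886 (cycling), and at resolution 0.5 they gave 0.817 (mature cDC2), 0.884 (cycling cDC2) and 1.15 (Cd7 Plac8). Clusters built with the ribosomal protein genes gave 0.836 (mature cDC2), 0.809 (cycling cDC1) and 1.17 (Cd7 Plac8). Without mitochondrial genes in the denominator the ratios were 0.931 (libraries), 0.849 (mature cDC2) and 0.801 (cycling cDC1). Standard subunits alone gave 0.932 (libraries) and 0.624 (mature cDC1). Removing cells of very high UMIs gave 0.833 (mature cDC2) and 0.799 (cycling cDC1). Dendritic clusters alone gave 0.951 between libraries.

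Counts past 1.5-fold moved as follows. Median-ratio scaling gave 35 genes lower in cycling cells of the cDC1 library, 2 in those of the cDC2 library, 6 lower in mature cells of the cDC2 library and 0 higher in Cd7 Plac8 cells. In mature cells of the cDC2 library, resolution 0.5 gave 3 lower and 1 higher, resolution 2 gave 1 higher, removing large cells gave 1 lower and cells of 10000 to 20000 UMIs gave 8 lower. In cycling cells of the cDC1 library 2 were lower without mitochondrial genes, at 5% mitochondrial UMIs, with dendritic other cells and without large cells, and 0 without a cell filter. Standard subunits alone gave 0 higher in mature cells of the cDC1 library and 0 either way in Cd7 Plac8 cells. For the latter, the count higher was 0 without a cell filter and 1 at 5% mitochondrial UMIs or with the genes in the clustering, and the count lower was 0 at 10000 to 20000 UMIs. Apart from the changes that leave genes out of the set, the cause was not tested. The direction of other departures and ratios of shares was kept in the alternatives run for them, and departures of Rps27l stayed between 1.82 and 1.91 (mature cDC1) and between 0.71 and 1.02 (mature cDC2).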
